A study of Mus musculus with 28 samples.

Results

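Contacts that entered the Promoter Capture Hi-C (PCHi-C) lists late in the conversion of Pre-B cells into macrophages are described here. PCHi-C maps which genomic restriction fragments touch a captured promoter fragment, the bait. The contacts were chosen by their presence in the deposited lists. Each is a pair of a bait and a non-bait fragment on one chromosome, with 50 kb to 1 Mb between the midpoints, that was listed at both 12h and 48h and at neither 0h nor 1h. There were 9342 such late-only contacts among the 203210 bait to non-bait contacts of the same distance window, and among 273644 pairs of fragments in the 4 lists together. All samples were C10 cells, a Pre-B line of the mouse derived from HAFTL cells and holding a transgene for C/EBPαER, which is the myeloid factor C/EBPα fused to the hormone binding domain of the estrogen receptor. Cells were taken uninduced (0h) or after 1h, 12h or 48h in 100 nM β-estradiol, to which IL-3 and CSF-1 were added, so the later groups differ from 0h by these cytokines as well. The controls carried the same fusion, and all cells were of a single line. RNA-seq had 3 libraries at each time point, while the PCHi-C lists were made from 2 merged replicates per time point, so a contact has no replicate value.

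C/EBPα is a bZIP transcription factor of granulocytes and macrophages that can drive B cell progenitors into macrophages. Distal fragments that touch a promoter often hold enhancers, and a promoter can gather many of them as a gene is switched on. Contacts can also be present while a gene is silent. A contact enters such a list when its signal passes the caller's threshold over the level expected at that distance, so a contact missing from a list was below that threshold and is not shown to be absent. Since the rule used the lists, counts and values of contacts are given as descriptions with no test. The RNA was not used by the rule.

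The non-bait fragments are HindIII fragments, and 100% of those in the window began at a HindIII cut. C/EBP proteins bind a palindrome written here as TTGCGCAA, and a looser form, TTGCNNAA, was searched on both strands, so that its reverse complement counts as a match. Every palindrome is also a match of the looser form. For each named gene with a late-only contact, the contact with the largest lower value of the 12h and 48h lists was taken. Among the 55 non-bait fragments of these contacts, 33 held the looser form and 1 held the palindrome. The shares among all 99904 non-bait fragments of the window were 63.8% and 0.348%. The stretches below come from 8 of the named contacts, all among those whose fragment held a match, with the 1 palindrome at Hmox1. The fragments taken for Fggy, Mmp12, Mmp13, Hif1a, Trib1, Klf6, Btg1 and Tlr2 held no match of either form. Capitals mark a match, the sequence is the plus strand of GRCm38.p6 (mm10), and no protein coding gene overlapped any of these fragments. Only the first match of a fragment is shown, or the palindrome at Hmox1. The fragments of Mmp8 and Fndc3a held 1 match of the looser form, and the others 4 to 6. A match describes letters and is no evidence of binding.
Fosl2 contact, chr5:32191936-32192043, between Fosl2 and Plb1: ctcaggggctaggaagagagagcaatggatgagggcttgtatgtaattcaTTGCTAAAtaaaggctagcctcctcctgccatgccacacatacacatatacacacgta
Peli1 contact, chr11:21034993-21035100, between Lgalsl and Peli1: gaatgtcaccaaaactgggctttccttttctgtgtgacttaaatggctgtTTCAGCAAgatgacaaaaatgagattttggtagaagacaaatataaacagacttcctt
Mmp8 contact, chr9:7336817-7336903, between Mmp13 and Mmp12: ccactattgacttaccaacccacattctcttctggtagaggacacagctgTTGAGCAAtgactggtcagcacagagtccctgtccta
Fndc3a contact, chr14:72783647-72783754, between Fndc3a and Cysltr2: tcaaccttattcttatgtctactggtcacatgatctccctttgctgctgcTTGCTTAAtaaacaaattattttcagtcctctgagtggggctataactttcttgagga
Xpr1 contact, chr1:155469039-155469146, between Xpr1 and Acbd6: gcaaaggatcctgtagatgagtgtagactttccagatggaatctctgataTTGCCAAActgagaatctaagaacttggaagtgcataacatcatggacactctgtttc
Lcp1 contact, chr14:75072619-75072726, between Rubcnl and Lrrc63: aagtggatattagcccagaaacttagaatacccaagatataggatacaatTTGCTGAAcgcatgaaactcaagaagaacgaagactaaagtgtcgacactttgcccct
Thbs1 contact, chr2:117916180-117916287, between Rasgrp1 and Thbs1: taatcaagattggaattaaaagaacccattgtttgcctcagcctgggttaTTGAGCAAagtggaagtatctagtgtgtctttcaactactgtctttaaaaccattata
Hmox1 contact, chr8:74989676-74989783, between Isx and Hmgxb4: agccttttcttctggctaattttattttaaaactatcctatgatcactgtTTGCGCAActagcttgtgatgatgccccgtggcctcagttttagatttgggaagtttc

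Late-only contacts were 4.6% of all contacts in the window, 9.96% of the 12h list and 8.56% of the 48h list. Theirs was the highest number among the combinations of 2 lists. Contacts shared by 0h and 48h alone numbered 8953, and early-only contacts (0h and 1h, and neither later list) 8579. The other 3 combinations held 6511 (1h and 12h), 5185 (1h and 48h) and 4117 (0h and 12h). The order was not tested, since the lists hold no replicates. All 4 lists shared 33316 contacts, and 31567 were in the 48h list alone. Late-only contacts came from all of the autosomes and X, at 3.35% of the window's contacts on chromosome 14 to 5.77% on chromosome 9.

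**Figure D1:**
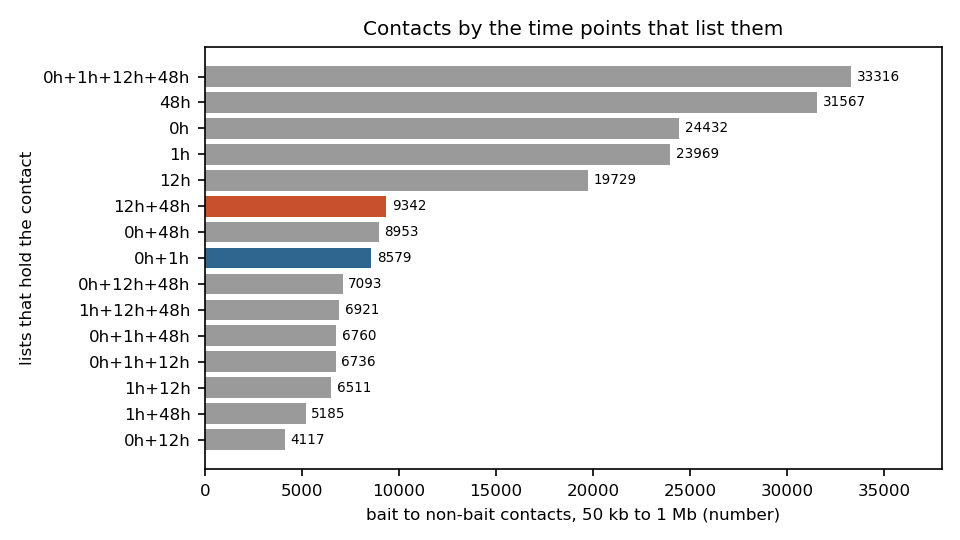
Number of bait to non-bait contacts (x axis) for each combination of lists that held the contact (y axis), with late-only contacts in orange and early-only contacts in blue. The 9342 late-only contacts are the most of any 2 lists, with 8953 for 0h and 48h next and 4117 for 0h and 12h the fewest.

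Late-only contacts had a median distance of 176 kb (quartiles 108 and 281 kb). Early-only contacts lay farther out, at a median of 227 kb, and contacts of all 4 lists at 180 kb. The shortest members spanned 50017, 50032 and 50041 bp, and the longest pairs left out at the lower limit 49996 and 49856 bp. At the upper limit the longest member spanned 993099 bp and the shortest pair left out 1001311 bp. The deposited value of a contact, a whole number whose unit the files do not name, had a median of 12 at 12h (quartiles 9 and 17, range 4 to 64) and 14 at 48h (quartiles 10 and 22, range 4 to 145). Contacts of all 4 lists had medians of 16 and 19 in the same 2 lists. Contacts listed at 12h alone had a median of 10 and those listed at 48h alone 11.

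Most late-only contacts lay near contacts of the same bait that had been listed before. For 7313 of them (78.3%), the same bait already had a listed fragment within 10 kb at 0h or 1h, and only 2029 had none. The share was 81.6% for early-only contacts looked at in the same way against the later lists. No earlier fragment within 50 kb was listed for 783 (8.38%). Late-only contacts also lay next to each other, since 39.3% had another late-only fragment of the same bait within 10 kb, against 27.3% for early-only contacts and 29.0% for contacts of 0h and 48h alone. The share was higher still for contacts of the 48h list alone (49.4%) and of all 4 lists (82.3%). The 10 contacts with the largest lower value of the 2 lists spanned 51.2 to 77.5 kb, and 9 of them had an earlier neighbour within 10 kb. They included the contact of Peli1 with the fragment chr11:21034091-21040282, at values of 58 and 106.

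The 9342 contacts were held by 4397 baits and 8698 non-bait fragments. A single late-only contact was held by 2412 of these baits and 2 by 953, while 192 baits held 6 to 9 and 66 held 10 or more. Baits with 6 or more accounted for 2229 contacts (23.9%). For comparison, 37 baits held 10 or more early-only contacts and 29 held 10 or more contacts of 0h and 48h alone. Only 243 of the 4397 baits had no contact of the window at 0h or 1h. Fragments were rarely shared, with 579 listed for more than 1 bait and at most 5 baits for a fragment. The fragment with 5 baits was chrX:53335727-53342762, contacted by the baits of Hprt, Plac1, Fam122b, Fam122c and a Mir450 cluster. A fragment at chr11:114913729-114914694 was contacted late by 4 baits of the Cd300 receptor cluster and its neighbour Rab37.

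The bait with the most late-only contacts, 31, held the start of Fggy, which encodes a carbohydrate kinase. Of these, 22 overlapped no protein coding gene and 9 lay in its own body, and the fragment with the largest lower value lay between Jun and Fggy. The bait of Peli1, a ubiquitin ligase of Toll-like receptor signalling, held 23 late-only contacts. The baits of Fosl2, which encodes the AP-1 subunit FRA2, and of Clasp2, a microtubule binding protein, held 22 each. Baits of Cd36 (20), Mmp12 (19), Hif1a (18), Xrcc4 and Tmem167 on a shared bait (17), Fndc3a, Lipa and Rapgef2 (16 each), Mmp8 and Trib1 (15 each), and Notch2, Xpr1 and 2310009B15Rik (14 each) followed. Each of these baits held 0 to 2 early-only contacts. These 16 are the baits with the most late-only contacts that hold an expressed protein coding gene. Baits with as many but with an untested gene included Mmp1a (22) and Gm10463 (23).

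The lists of these baits grew as a whole. Fggy went from 36 and 39 contacts in the window in the early lists to 100 and 96 in the late ones. Cd36 had 4, 6, 27 and 47. Mmp12 went from 12 and 17 to 59 and 51, Hif1a from 3 and 7 to 30 and 28, and Notch2 from 0 and 1 to 20 and 21. Fosl2 had 53 contacts at both early points, then 84 and 93. Because presence at 12h and 48h chose these baits, the growth follows in part from the choice. The totals over all baits were 99986, 97977, 93765 and 109137, so the 12h list was the shortest and the 48h list the longest.

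**Figure D2:**
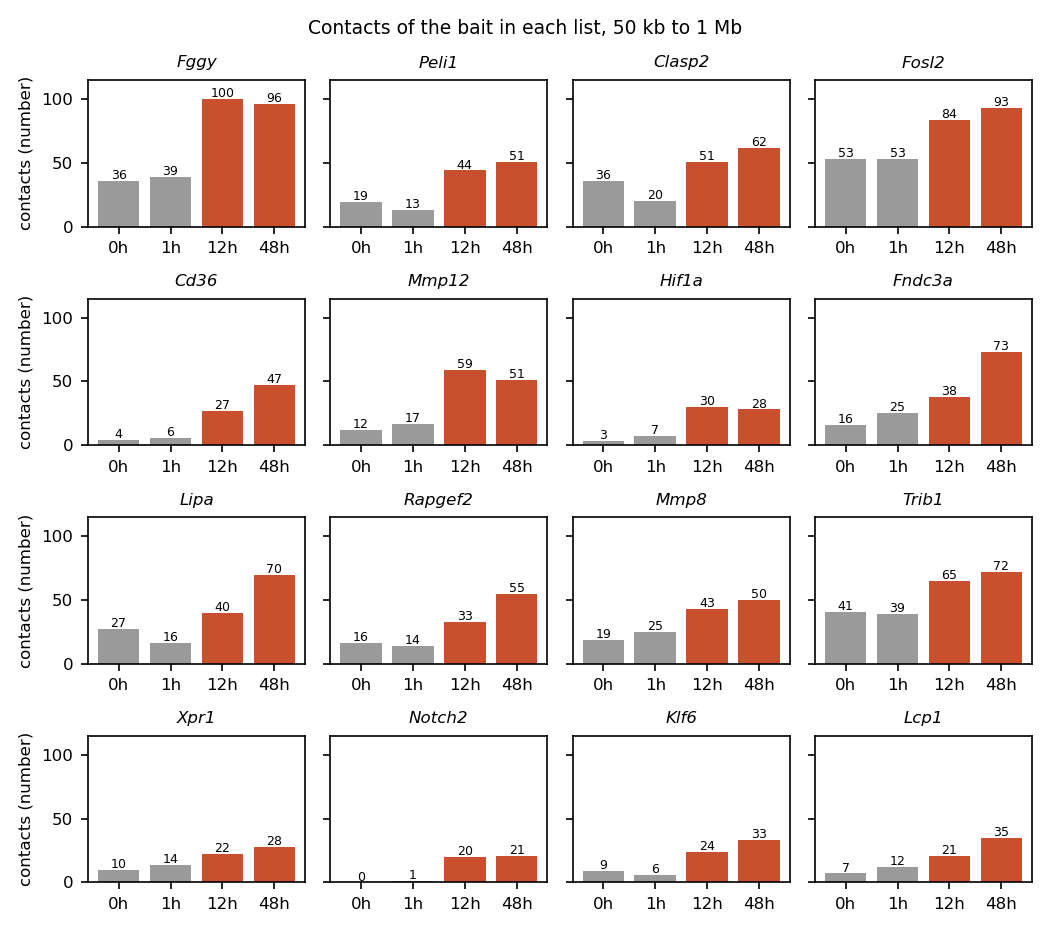
Number of contacts of the window (y axis) in each list (x axis, early lists in grey and late lists in orange) for the baits of 16 genes with many late-only contacts. Notch2 rises from 0 and 1 to 20 and 21, and Fggy from 36 and 39 to 100 and 96. Klf6 and Lcp1 are shown, while the more contacted baits of Xrcc4 and Tmem167 and of 2310009B15Rik are not.

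Where the late-only fragments lay differed from bait to bait. At Fosl2 (chr5:32135801-32157842, plus strand) 20 of 22 lay upstream and 18 overlapped Babam2, a subunit gene of a DNA repair complex. A dense block of contacts far upstream was listed at every time point, and the late-only fragments lay inside it or between it and the bait. The remaining 2 lay 58.2 kb and more downstream, and the nearer had values of 52 at 12h and 87 at 48h. At Cd36 (chr5:17781690-17888801, minus strand), a scavenger receptor that takes up fatty acids and oxidised lipoproteins, 18 of 20 lay upstream, within 163 kb of the bait, and 13 overlapped Gnat3. At Clasp2 21 of 22 lay in its own gene body. At Hif1a (chr12:73901375-73947530), the oxygen-regulated transcription factor, all 18 lay upstream, at 63.0 to 205 kb, and 8 overlapped Prkch. At Ptgs2, the prostaglandin synthase COX-2, all 7 overlapped Pla2g4a, the gene of a phospholipase that releases arachidonic acid. At Notch2 (chr3:98013527-98150361), a signalling receptor, 7 of 14 lay in its own body, and 13 of 14 had no earlier listed fragment within 10 kb. That last count was 13 of 22 for Clasp2, 10 of 22 for Fosl2, 10 of 14 for Xpr1, 2 of 19 for Mmp12 and 1 of 23 for Peli1.

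A group of matrix metalloproteinase genes on chromosome 9 held late-only contacts at several neighbouring baits, and these share fragments. The contact with the largest lower value was the same for Mmp12, the macrophage elastase, and Mmp13, a collagenase. It joined them to chr9:7217087-7218805, 125 kb from the Mmp12 bait with values of 19 and 37, and 56.5 kb from the Mmp13 bait with values of 25 and 98. At Mmp8, the neutrophil collagenase, all 15 lay upstream at 159 to 288 kb, and 5 of them overlapped Mmp12. On chromosome 19 Lipa, the lysosomal acid lipase, contacted 2 fragments over the interferon-induced gene Ifit1 and 3 over Fas, and the bait of Ifit1 contacted 2 over Lipa. Over all baits whose genes share a strand, 49.7% of late-only contacts lay downstream, against 52.4% of early-only contacts and 53.1% of contacts of all 4 lists.

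**Figure D3:**
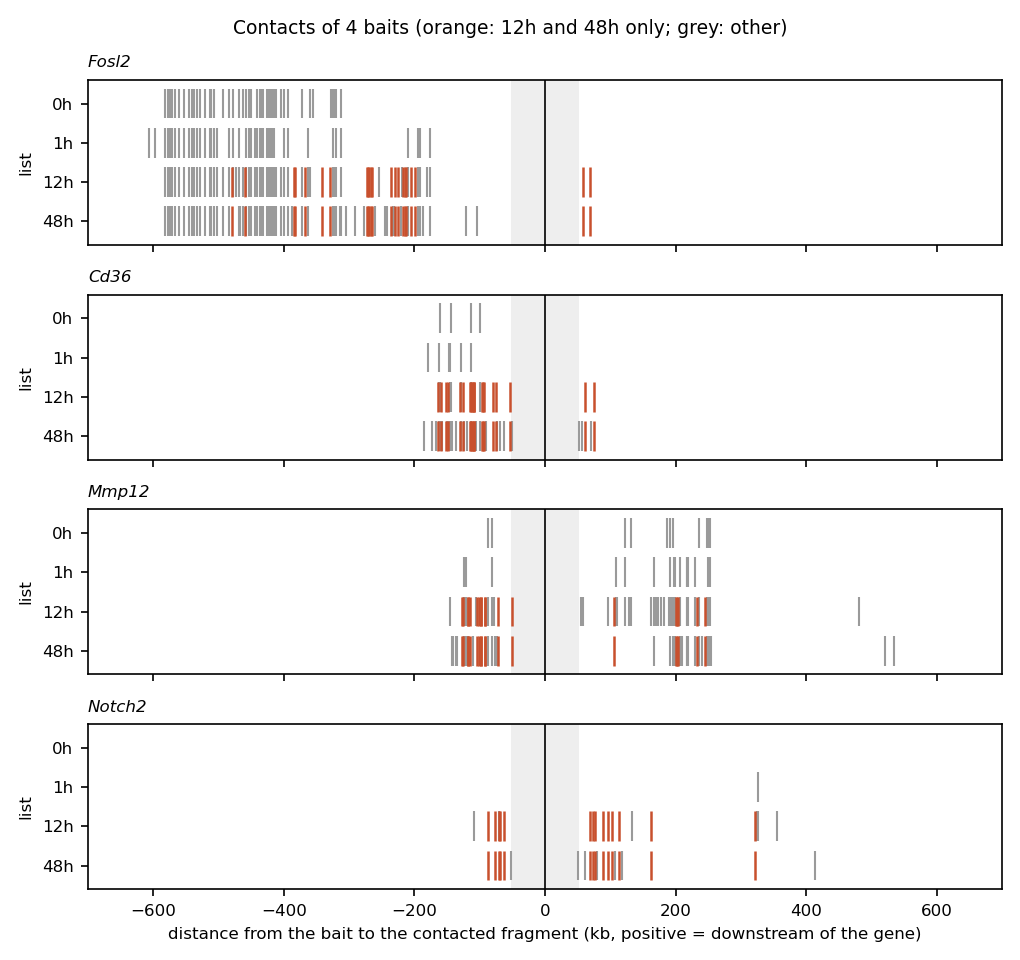
Contacts of 4 baits in each list (rows) by the distance from the bait (x axis, kb, positive downstream of the gene), with late-only contacts in orange and all others in grey. The shaded 50 kb on either side of the bait were outside the window. At Fosl2 20 of the 22 late-only fragments lie upstream, inside or nearer than a block present in every list, and at Notch2 no contact was listed at 0h and 1 at 1h.

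The RNA of the bait genes was then compared between time points. Deposited TPM (an abundance per transcript length, relative to the library's total) were divided by a size factor per library, and 16415 genes were tested with limma on log2(TPM + 0.1). Replicate 3 stood apart at every time point, with the most genes above 0. It also had the lowest share of TPM in the pair of most abundant genes (70.3% to 76.9%, the other libraries 73.7% to 82.9%). A gene was called when its adjusted p was under 0.05 and its log2 fold change was beyond 1. Among all genes tested, 19.6% were called higher and 17.6% lower at 48h against 0h. At 12h these shares were 12.0% and 9.42%, and at 1h 4.09% and 2.82%. Among the 10719 tested genes whose bait had any contact in the window, 17.2% were called higher and 21.8% lower at 48h, and 10.9% and 11.7% at 12h. Of the 1389 genes with 3 or more late-only contacts, 857 passed the filter on low TPM. Of these, 233 (27.2%) were called higher and 141 (16.5%) lower at 48h, with a median log2 fold change of 0.19 against 0.07 over all genes tested. At 12h 144 (16.8%) were higher and 77 (8.98%) lower, and at 1h 52 (6.07%) and 26 (3.03%). Without replicate 3 at every time point, a version chosen after seeing the data, the counts were 221 and 125 at 48h and 124 and 59 at 12h. On TPM as deposited, without size factors, the 857 split into 174 higher and 184 lower at 48h (13.5% and 23.1% among all genes tested) and 218 and 47 at 12h (17.7% and 5.75%). The share of members called higher was thus above that of all genes with and without size factors, by a factor that changed little. The balance with the lower genes moved with the scaling.

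The share called higher went with the number of late-only contacts. Of the 2609 tested genes with 1 or 2, 19.4% were called higher and 20.5% lower at 48h, which is near the background. The 630 genes with 3 to 5 had 21.9% and 17.3%. The 227 with 6 or more had 41.9% and 14.1%, with a median log2 fold change of 0.83, and the 55 with 10 or more had 54.5% and 7.27%, with a median of 1.26. At 12h the genes with 6 or more had 29.1% higher and 7.05% lower, and at 1h 11.5% and 3.08%. Early-only contacts went the other way. Of the 256 tested genes with 6 or more of those, 13.7% were higher and 32.4% lower at 48h, with a median of -0.31. A filter on low TPM can keep a gene only because it is high late, so the shares were also taken over all genes, tested or not. They were 27.1% for 6 or more late-only contacts and 9.27% for all genes with a contact in the window. Genes on shared or neighbouring baits are not independent of each other. These shares describe the lists and were not tested.

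**Figure D4:**
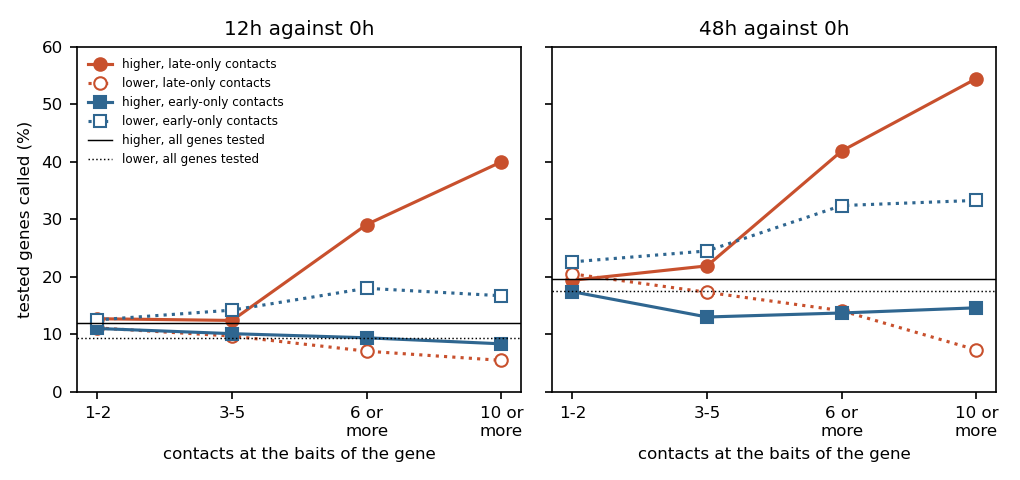
Share of tested genes called higher (filled symbols) or lower (open symbols) against 0h (y axis, percent) by the number of late-only (orange) or early-only (blue) contacts of their baits, at 12h and 48h. The black lines give the shares among all genes tested, 12.0% higher and 9.42% lower at 12h and 19.6% and 17.6% at 48h. The share called higher reaches 54.5% at 48h for 10 or more late-only contacts.

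Fosl2, Trib1, Klf6 and Peli1, all genes of regulators, were called higher at 48h. In the 3 libraries of 0h Fosl2 had 0.0199, 0 and 0.0244 TPM. It had 0.593, 1.2 and 0.805 after 1h, 6.14, 7.01 and 6.44 after 12h, and 5.35, 5.84 and 7.43 after 48h. No library of a later point overlapped those of 0h. The log2 fold change at 48h was 5.77 ± 0.243 (SE, n = 3 per time point, limma adjusted p = 1.2e-08). Trib1, a pseudokinase that promotes the degradation of C/EBPα, stood at 3.48, 3.32 and 3.09 TPM at 0h and had reached 10.5, 9.29 and 10.4 by 1h, before its late-only contacts were listed. It then stayed at 9.84, 9.58 and 9.25 at 12h and was at 19.5, 20.4 and 20.7 at 48h (log2 fold change 2.58 ± 0.109, limma adjusted p = 1.21e-08). Klf6, a zinc finger factor of activated macrophages with 11 late-only contacts, had 2.09, 2.5 and 2.03 TPM at 0h and 2.62, 2.76 and 2.54 at 1h. It rose to 6.86, 9.02 and 7.8 at 12h and 21.1, 24.4 and 24.6 at 48h. Peli1 rose from 2.14, 1.95 and 2.52 TPM at 0h to 12.6, 11.9 and 11.4 at 48h (2.40 ± 0.174, limma adjusted p = 7.29e-07), with the 12h libraries between 3.53 and 5.32.

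Several other genes had risen by 12h. Notch2 had 0.627, 0.58 and 1.1 TPM at 0h, 2.04, 2.42 and 2.44 at 12h and 2.24, 1.89 and 2.65 at 48h. Its log2 fold change was 1.51 at 12h (limma adjusted p = 0.00106) and 1.48 at 48h (limma adjusted p = 0.000596), while with a pseudocount of 1 both fell below 1 (0.91 and 0.89). Hif1a had 5.46, 3.6 and 5.24 TPM at 0h, 9.89, 11.3 and 10.3 at 12h and 9.98, 11.2 and 7.07 at 48h, with no overlap with 0h. It was called higher at 12h (log2 fold change 1.14 ± 0.195, limma adjusted p = 0.00119), but not without 0h replicate 2 (0.96). At 48h its fold change of 0.96 (limma adjusted p = 0.00181) lay just under the threshold, and over it without 0h replicate 1 (1.07), 0h replicate 3 (1.04) or 48h replicate 3 (1.15). Id2, an inhibitor of basic helix-loop-helix factors, rose from 0.358 to 0.558 TPM at 0h to 3.89 to 5.9 at 48h, and its baits held 7 late-only and 6 early-only contacts. Fndc3a, a fibronectin domain protein, rose from 2.34, 3.91 and 3.8 TPM at 0h to 10.1, 8.96 and 9.47 at 12h and 33.5, 33.5 and 29.2 at 48h. Rapgef2, an exchange factor for Rap GTPases, rose from 0.269 to 0.602 TPM at 0h to 1.39 to 1.86 at 1h. It was at 1.22 to 1.38 at 12h, below its 1h libraries, and at 1.82 to 2.43 at 48h. Its call at 12h (log2 fold change 1.36) was lost with a pseudocount of 1 (0.65).

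**Figure D5:**
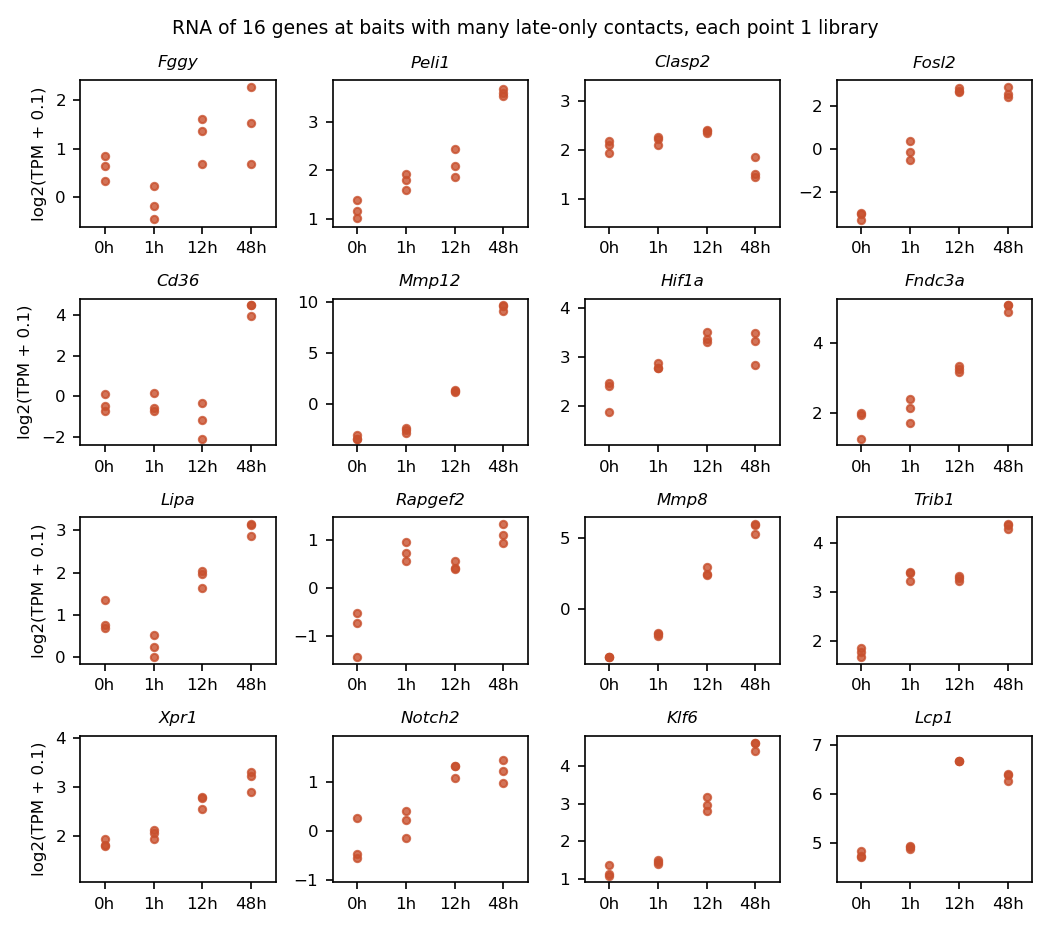
RNA of 16 genes at baits with many late-only contacts, as log2(TPM + 0.1) after size factor scaling (y axis, a separate scale per gene), each point a library, 3 per time point (x axis). The 48h libraries of 13 genes lie above all 0h libraries and are called higher. Fggy overlaps 0h, Hif1a misses the fold threshold and Clasp2 lies below 0h. Klf6 (11 late-only contacts) and Lcp1 (8) are shown, while the more contacted baits of Xrcc4 and Tmem167 (17) and of 2310009B15Rik (14) are not. Of the genes left out, only Xrcc4 was called higher at 48h. Among all genes tested, 19.6% were called higher at 48h.

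Matrix proteases were among the largest increases. Mmp12 was listed at 0 in 2 libraries and at 0.0244 TPM in the third at 0h, was at 2.62, 2.42 and 2.15 at 12h, and reached 802, 823 and 559 at 48h. The 12h libraries lay far below the 48h libraries although the bait already had 59 contacts at 12h and 51 at 48h. Its log2 fold change at 48h was 12.7 ± 0.202 on the log2(TPM + 0.1) scale (limma adjusted p = 4.03e-11), a value that depends on the pseudocount because the 0h level is near 0. Mmp13, with 5 late-only contacts, went from 0, 0 and 0.0244 TPM to 164, 158 and 123 at 48h. Mmp8 was listed at 0 in every 0h library and was at 59.2, 61.9 and 38.5 TPM at 48h (limma adjusted p = 3.03e-10). Thbs1, a secreted matrix glycoprotein with 7 late-only contacts, rose from at most 0.0299 TPM to 71.5, 73.7 and 78.6 at 48h.

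Genes of lipid uptake and the lysosome rose at different times. Of the 26 tested genes of that list, 14 were called higher at 12h and 23 at 48h. Cd36 had 0.986, 0.625 and 0.501 TPM at 0h and 0.135, 0.35 and 0.683 at 12h, which overlap (called lower only without 12h replicate 3, at -1.26), and 22.4, 22.5 and 15.8 at 48h (log2 fold change 4.69 ± 0.416, limma adjusted p = 3.66e-06). Its late-only contacts were listed at 12h, when its RNA was not called higher. Lipa went from 2.44, 1.51 and 1.61 TPM to 8.61, 8.76 and 7.22 at 48h (2.11 ± 0.217, limma adjusted p = 1.19e-05). Lpl, lipoprotein lipase, had 6 late-only contacts and only 1 and 2 contacts at 0h and 1h, and rose from 0.335 to 0.528 TPM at 0h to 1.23 to 1.36 at 12h and 1.5 to 2.03 at 48h. Its log2 fold change was 1.90, and just under 1 (0.998), no longer a call, with a pseudocount of 1. Hmox1, heme oxygenase, rose from 1.24 to 1.25 TPM at 0h to 4.86 to 5.32 as early as 1h and 13.8 to 21.6 at 48h. Ctsz, a lysosomal cysteine protease, rose from 5.57 to 8.09 TPM at 0h to 39.1 to 50.2 at 12h, which overlaps its 49.2 to 74.6 at 48h. The proton pump subunit Atp6v1h, with 8 late-only contacts, gave 3.28 to 7.46 TPM at 0h and 3.35 to 5.2 at 48h, which overlap (log2 fold change -0.12 ± 0.301, limma adjusted p = 0.796). Another subunit gene of that pump, Atp6v1c1, with 4, had 4.01, 3.06 and 3.67 TPM at 0h and 7.66, 5.07 and 10.7 at 48h and was called higher (log2 fold change 1.05, limma adjusted p = 0.00314). That call was lost without 0h replicate 2 (0.94) or 48h replicate 3 (0.79), with a pseudocount of 1 (0.90) and with either other scaling (0.64 and 0.98).

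Receptors, cytokines and cytoskeletal genes of phagocytes were also among the members. Tlr2, a receptor for bacterial lipoproteins, had no contact in the window at 0h, 1 at 1h and 10 at both late points. Its RNA rose from 0.259 to 0.44 TPM at 0h to 2.24 to 2.52 at 1h, 22.7 to 24.8 at 12h and 32.3 to 35.0 at 48h. Clec7a, the beta-glucan receptor Dectin-1, rose from 0.465 to 1.19 TPM to 45.8 to 61.4, and Cd300ld, a myeloid receptor of the Cd300 cluster, from at most 0.0733 TPM to 11.1 to 14.4. Ccl3, a chemokine that draws monocytes, rose from 0.781 to 2.51 TPM to 70.8 to 105. The cytokine genes Osm and Tnfsf9, with 3 late-only contacts each, were called higher at 48h (log2 fold changes of 1.84 and 3.31), Osm not with a pseudocount of 1 (0.98). Ptgs2 rose from at most 0.0335 TPM to 5.44 to 12.6. Lcp1, an actin bundling protein of leukocytes, rose from 26.1 to 28.4 TPM at 0h to 102 in each 12h library and 77.4 to 85.1 at 48h. Rhob, a small GTPase that acts on the cytoskeleton, held 5 late-only contacts and had 2.91 to 4.36 TPM at 0h and 3.96 to 7.8 at 48h, which overlap (0.54 ± 0.235, limma adjusted p = 0.0834). The adapter gene Lcp2 was listed at 0 in every 0h library and was at 6.77 to 8.61 TPM at 48h. Ifit1, Ifit2, Ifi205 and Gbp5, all interferon-induced, held 3 to 5 late-only contacts each and were called higher at 48h. Ifi205, Gbp5 and Ifit1 have close relatives in their gene families, so reads may have been divided among them.

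Late-only contacts also occurred at genes whose RNA fell. Kif18b, a mitotic kinesin, had no contact in the window at 0h or 1h and 7 and 5 at 12h and 48h, of which 5 were late-only and 4 overlapped Nmt1. Its RNA was at 2.17, 2.84 and 3.19 TPM at 0h and 0.876, 1.3 and 1.08 at 12h. All 48h libraries listed it at 0 (limma adjusted p = 1.89e-08). Cep55, needed for the final cut of cell division, had 4 late-only contacts and fell from between 4.73 and 6.81 TPM to being listed at 0 in every 48h library. Nuf2, a kinetochore protein with 3, fell from 4.05 to 5.73 TPM to at most 0.0956. Myb, a factor of blood progenitors, held 6 late-only contacts, all over the neighbouring Ahi1, and fell from 20.4, 17.8 and 19.2 TPM to 0.409, 0.601 and 0.778 at 48h (-4.82 ± 0.182, limma adjusted p = 5.8e-09). Bach2, a B cell repressor, held 6 late-only and 7 early-only contacts and fell from 4.17 to 6.26 TPM to 0.0273 to 0.245. Lef1 and Foxo1, also of the Pre-B program, held 3 and 4 and fell, Foxo1 by less than the fold threshold with a pseudocount of 1 (-0.91). Cdkn2c, an inhibitor of cyclin-dependent kinases with 4 late-only contacts, was lower at 48h as well (-2.88, limma adjusted p = 0.000402), while the related Cdkn2b, with 8, was higher (1.91, limma adjusted p = 0.000359).

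Some of the most connected baits held genes with little or no change, or with almost no RNA. Fggy, with 31 late-only contacts, had 1.69, 1.46 and 1.16 TPM at 0h and 4.68, 2.79 and 1.5 at 48h, which overlap (log2 fold change 0.88 ± 0.381, limma adjusted p = 0.0803, and 1.29 with an adjusted p of 0.0111 without 48h replicate 3). Clasp2 had 4.18, 4.45 and 3.72 TPM at 0h and 2.75, 3.52 and 2.65 at 48h, a log2 fold change of -0.46 ± 0.145 (limma adjusted p = 0.0217) below the fold threshold. The bait shared by Xrcc4 and Tmem167 gave log2 fold changes of 1.26 (limma adjusted p = 0.0109) and 0.86 (limma adjusted p = 0.00252) at 48h. Tmem167 passed the fold threshold without 0h replicate 1 (1.01). The call for Xrcc4 was lost without that library (0.97), with a pseudocount of 1 (0.72), on TPM as deposited (0.87) and in a fit of the 6 libraries compared (1.26, limma adjusted p = 0.0745). The call for Xpr1, a phosphate exporter, was lost on TPM as deposited as well (0.89, against 1.30 ± 0.146). The RNA of 2310009B15Rik overlapped between 0h and 48h (log2 fold change -1.03 ± 0.677, limma adjusted p = 0.241). Il1a, the gene of the cytokine interleukin 1 alpha, had no contact in the window at 0h or 1h and 14 and 9 at 12h and 48h. All 8 of its late-only contacts lacked an earlier neighbour within 10 kb, and the one with the largest lower value reached a fragment over Il1b. Its RNA was at most 0.0956 TPM in any library and was not tested. The cytokine gene Csf2 (3 late-only contacts) and the cyclin gene Ccnd2 (5) were not tested for the same reason, at no more than 0.148 and 0.26 TPM.

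Gene lists of cell types and functions were described by counts. Of all 23193 genes with a bait, untested genes included, 5826 (25.1%) had a late-only contact. Among the 10719 tested genes with a contact in the window 3466 had one, a higher share. The share was 34.3% among macrophage genes, 39.3% among Pre-B cell genes, 27.6% among cell cycle genes and 47.6% among interferon response genes. It was 38.5% for chemokines and cytokines, 33.3% for myeloid factors, 45.7% for adhesion and cytoskeleton genes and 32.1% for lysosome and lipid genes. Among markers of other blood cells, of which only 4 of 30 passed the filter on low TPM, it was 14.8%. The part of expression in these shares was not tested. The 37 macrophage genes, 35 of them with a bait, held 72 late-only and 10 early-only contacts in all. Most of the 72 were at Cd36 (20), Mmp12 (19), Mmp8 (15) and Tlr2 (8). Of the macrophage genes, 12 had a late-only contact and 5 had 3 or more. All 12 were called higher at 48h, as were 30 of the 33 tested genes of the list. Of 26 chemokine and cytokine genes, 10 had a late-only contact and 7 of these were tested. All 7 were called higher at 48h, as were 14 of the 15 tested genes of the list. The 35 myeloid transcription factors held 54 late-only and 43 early-only contacts, with 22 of the late-only ones at Fosl2 alone. Of these factors, 11 had a late-only contact. All 9 of them that were tested were called higher, as were 20 of the 29 tested genes of the list. Of 30 lysosome and lipid genes, 9 had one, and 8 of these were called higher, as were 23 of the 26 tested genes of the list. Of 35 adhesion and cytoskeleton genes, 16 had one and 11 of these were called higher, as were 21 of the 31 tested genes of the list. All 10 of the 26 interferon response genes with a late-only contact were called higher, as were all 26 of the list. Of 29 Pre-B cell genes, 11 had one, with 27 late-only and 30 early-only contacts over the list, and all 11 were called lower, as were 27 of the 28 tested. Of 29 cell cycle genes, 8 had one, of which 7 were tested, 2 were called higher and 5 lower. Over the 28 tested genes of that list, 6 were called higher and 20 lower. Genes with a late-only contact were thus called higher in the lists where most genes rose, and lower in the Pre-B list, where nearly all fell.

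The labelled cell states were checked against these lists. The summed TPM of the Pre-B cell genes was 505 to 555 at 0h and 72.4 to 80.0 at 48h, and that of the macrophage genes 57.9 to 67.5 and 2470 to 2730. Markers of other blood cells summed to 0.219 to 0.736 TPM at 0h, 9.5 to 13.2 at 12h and 3.28 to 6.66 at 48h, and only 4 of 30 passed the filter. Their part in the results was not tested. In bulk RNA, fewer cells of a type and less RNA per cell cannot be told apart. Size factors ranged from 0.611 to 1.52.

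The fragments reached by late-only contacts resembled those of other contacts. Of the 8698 fragments, 64.9% overlapped a protein coding gene, 35.6% touched an exon of one and 12.3% held a transcription start site. Among fragments of early-only contacts these shares were 65.5%, 38.6% and 15.4%, and among all fragments of the window 63.1%, 33.5% and 12.2%. GC content was 44.1%, 45.4% and 44.2%, and 26.4%, 27.7% and 27.0% of bases were masked as repeats in the genome sequence. For the baits with 6 or more late-only contacts, GC content was 42.8% and 29.8% of fragments touched an exon.

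Motif densities differed by small amounts. The looser C/EBP form TTGCNNAA occurred 44.0 times per 100 kb in late-only fragments, 40.0 in early-only fragments and 43.3 in all fragments of the window, and 48.2 times for the baits with 6 or more late-only contacts. It was present in 65.8%, 61.5%, 63.8% and 67.2% of fragments. The palindrome TTGCGCAA was found 38 times in late-only fragments, 0.12 per 100 kb, against 0.0723 in early-only fragments and 0.0988 in all. Only 4 of these matches were in fragments without an earlier neighbour, 0.0565 per 100 kb. The letters TCCCNNGGG, bound by the B cell factor EBF1, occurred 14.3 times per 100 kb in late-only fragments, 17.1 in early-only fragments and 14.8 in all, and 12.2 for the baits with 6 or more. The E-box CAGCTG followed the same order at 49.4, 52.8, 50.0 and 44.3. The AP-1 letters TGANTCA stood at 32.1, 30.5, 32.0 and 33.8, and GAGGAAGT, bound by PU.1, at 6.87, 6.82, 6.7 and 7.11. The CTCF motif occurred 1.15 times per 100 kb in late-only fragments, 1.46 in early-only fragments, 1.74 in those of all 4 lists and 1.14 in all. C/EBP, EBF1 and E-box letters differ in GC content, as do the fragments, and the part of base composition was not tested.

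Of 13 genes that the study names for a change of contact or compartment in these samples, a part of all the genes it names, 11 had a bait and 5 a late-only contact. They were chosen on these samples and so are no independent evidence. Btg1, an antiproliferative gene, held 9, at 182 to 479 kb from its bait, and its list went from 15 and 12 contacts to 20 and 57. Its RNA rose from 3.32, 2.11 and 2.99 TPM at 0h to 8.24, 8.98 and 10.6 at 12h and 33.6, 33.9 and 46.5 at 48h (3.72 ± 0.242, limma adjusted p = 3.24e-07). Ssbp1, a mitochondrial DNA binding protein, held 7, of which 6 overlapped Mgam, and fell from 7.4, 5.03 and 2.86 TPM to 2.58, 1.39 and 2.18 at 48h (-1.21 ± 0.316, limma adjusted p = 0.00827). Its call at 48h was lost without 0h replicate 1 (-0.90) or 48h replicate 2 (-0.97), with a pseudocount of 1 (-0.95) and in a fit of the 6 libraries compared (-1.21, limma adjusted p = 0.0736). Ccl7, Ccl12 and Clec4d held 1 each. Clec4n, Clec4e, Pax5, Suz12, Clcf1 and Maf1 held none. The study names Suz12, Pax5 and Clcf1 for decreased contacts and the Clec4 genes for a switch of compartment, which this rule does not address. From 0h to 48h the lists held 1, 8, 9 and 14 contacts of the window for Ccl7 and 0, 0, 1 and 12 for Ccl12. They held 9, 2, 0 and 0 for Suz12, 32, 11, 11 and 22 for Pax5 and 26, 24, 11 and 9 for Clcf1. Gbp4 and Gbp9 had no bait in the lists, and whether their promoters were captured is not known here.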

How the data were processed

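RNA-seq (12 libraries) and PCHi-C lists (4 time points) were analysed, and Hi-C data were not used here. Per the study's methods and the submitters' processing notes, the authors merged technical replicates, trimmed RNA reads with Trim Galore 0.6.2, mapped them to mm10 with HISAT2 2.1.0 and obtained TPM with RSEM. They deposited TPM for 55450 genes, all of which (100%) matched GENCODE M21 on GRCm38. TPM keep no depth, so read depth is unknown here. For PCHi-C the authors merged 2 replicates and called contacts with CHiCAGO. Deposited values at 0h are CHiCAGO scores of at least 5, and those at 1h, 12h and 48h are whole numbers with no unit named, so values were never compared with 0h.

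A bait was the first fragment of any line. Bait genes had a GENCODE start site inside the bait. TPM were divided by median-of-ratios size factors and tested as log2(TPM + 0.1) in 16415 genes whose mean TPM reached 0.1, by limma (version 3.58.1, R 4.3.3) in 1 fit of all libraries with eBayes trend and Benjamini-Hochberg adjustment over all genes. On simulated data with 200 changed genes the fit recovered 91% at a log2 size of 2 and 69% at 1.5 and called 13 unchanged genes. The changed genes were drawn only from those with a positive mean log2(TPM + 0.1) at 0h. Noise was independent between libraries, with the largest spreads capped. Recovery was not measured for genes below that level, and no shared deviation of replicate 3 was simulated. Other steps used Python 3.11.15, pandas 2.3.3, numpy 2.4.6 and pysam 0.24.0. The labels name biological replicates but no culture, so p-values measure the spread between these samples.

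Genes named are those of the 15 baits with the most late-only contacts that hold an expressed protein coding gene (16 with ties), the 10 largest increases and 5 largest decreases at 48h among genes with 3 or more contacts and a mean TPM of at least 1, listed genes with 3 or more, and 13 genes the study names for a change of contact or compartment. The contact shown for a gene has the largest lower value of the 12h and 48h lists. Baits and fragments shared by several baits were named after their values were seen. The members and lists were chosen with earlier results of these data known. Alternatives varied scaling, pseudocount, filter, fold threshold, libraries, replicate block and the contact rule.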

Additional observations from a re-analysis of the deposited data

How the results depend on the processing

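Leaving out a library in turn gave 221 to 236 genes called higher at 48h and 132 to 149 called lower. These were 25.8% to 27.5% and 15.4% to 17.4% of the 857, against 18.3% to 19.8% and 16.6% to 18.3% among all genes tested. At 12h it gave 128 to 145 (14.9% to 16.9%, against 10.6% to 11.4%) and 70 to 76 (8.17% to 8.87%, against 8.3% to 9.08%). Without replicate 3 at every time point (chosen after seeing the data) the counts were 221, 125, 124 and 59, with the shares given above. With a pseudocount of 1, 89 genes (10.4%) were called lower at 48h, and at 12h 75 (8.75%) higher and 37 (4.32%) lower. Among all genes tested those shares were 11.2%, 5.07% and 5.35%. TPM as deposited gave 218 (25.4%) higher and 47 (5.48%) lower at 12h, against 17.7% and 5.75%. A fold threshold of 2 on the log2 scale gave 108 (12.6%) and 54 (6.3%) at 48h, against 9.24% and 7.66%. At 12h it gave 51 (5.95%) and 22 (2.57%), against 4.41% and 2.61%. No fold threshold gave 129 (15.1%) lower at 12h, against 14.5%. With 1 or more late-only contacts the counts were 740, 675, 476 and 367, with 6 or more 95, 32, 66 and 16, and with 3 or more that had no earlier fragment within 10 kb 48, 18, 33 and 12, where 40.0% of 120 tested genes were higher at 48h. These last sets differ in size by construction. The median of all genes on TPM as deposited was 0.34 at 12h and -0.18 at 48h, against 0.07 at both with size factors, and the cause was not tested. Treating an earlier fragment within 10 kb as the same contact left 2029 late-only contacts, while the other 5 rules gave 9141 to 10610. The palindrome density of 0.12 per 100 kb became 44.0 for the looser form by construction and 0.0565 without earlier neighbours, the latter from 4 matches. Of the values of named genes, 39 lost the call, 28 gained it and 1860 did neither. Another 17, none called in either fit, changed sign. At 12h Atp6v1h (-0.0636) became 0.267 and Ifit2 (-0.241) 0.0652 on TPM as deposited, and Atp6v1h 0.0553 on TPM rescaled without the 20 most abundant genes. Without replicate 3 at every time point Atp6v1h became 0.296 at 12h and 0.0832 at 48h (from -0.115), Xrcc4 -0.0661 and Gbp4 -0.114 at 12h. Leaving out single libraries gave -0.287 to 0.295 for Atp6v1h, -0.205 to 0.362 for Xrcc4, -0.0399 to 0.431 for Gbp9, -0.484 to 0.00764 for Ifit2 and -0.0786 to 0.357 for Gbp4 at 12h, and -0.338 to 0.243 for Atp6v1h at 48h.

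Replicate numbers shared by the time points were tried as a block. Same-numbered libraries deviated together by correlations of -0.0108 to 0.255, not all over 0.1 (replicate 3 in 5 of 6 pairs), so by that rule the numbers do not pair the libraries. The highest correlation within the other replicates was 0.107. The deposited labels number the replicate 3 libraries after all others. Whether they were handled together is not stated and was not tested. With the replicate block 234 genes (27.3%) were called higher at 48h and 141 (16.5%) lower, against 19.8% and 17.8% among all genes tested. At 12h the counts were 146 (17.0%) and 76 (8.87%), against 12.1% and 9.53%.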
